A study of Mus musculus with 8 samples.

Results

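The genes that carry DNA damage signalling in meiotic silencing were followed through RNA-seq of mouse testis. They are the 10 genes Brca1, Atr, Atm, Topbp1, Mdc1, H2afx, Rnf8, Chek1, Rad9b and Hus1b, taken by symbol from the 23983 genes of the deposited table, and all 10 were found. The libraries come from whole testis of wild-type C57BL/6J males without transgene or treatment, at d12, d16 and d24 after birth (p.p.) and at the adult stage, whose age in days the labels do not give. Each stage is 1 library of total RNA from a piece of testis. No test between stages was therefore possible, and no difference between stages has a replicate check. Values are FPKM, by definition the fragments per kilobase of transcript normalised to the mapped fragments. On this scale genes of different length can be compared within a library. The deposited values also carry a scaling between libraries that the sources do not give. At 1 kb, 1 fragment gave 0.112 FPKM in the adult and 0.0800 at d12, though more fragments were implied for the adult library. The range after a value is its exact 95% interval, which covers counting error only and not the spread between animals. Overlap of such intervals does not show that levels are equal. The interval of the ratio between stages can exclude 1 where levels overlap, as for Brca1 (0.867 to 0.998), Chek1 and Rnf8 from d12 to d16 and H2afx from d16 to d24. A gene is said to rise or to fall where FPKM + 0.1 changed at least 2-fold.

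In spermatocytes the X and Y chromosomes remain largely unpaired, and their chromatin is silenced at the start of pachytene (meiotic sex chromosome inactivation, MSCI). The signal is built like a response to DNA breaks: HORMAD proteins and BRCA1 on the unpaired axes bring in the kinase ATR with its activator TOPBP1, ATR phosphorylates the histone variant H2AX, and MDC1 binds the phosphorylated histone and spreads ATR and TOPBP1 into the chromatin loops. The ubiquitin ligase RNF8 acts after MDC1, ATM is the kinase that answers the programmed breaks of early meiosis, CHEK1 is an effector kinase of ATR, and RAD9B and HUS1B are paralogs of subunits of the ring-shaped 9-1-1 clamp that helps to activate ATR.

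Within the 10 genes, Mdc1 and Atr were higher at d24 than at d12, while Atm and Chek1 were lower. From d12 to d16 Mdc1 was the 1 gene that rose, 2.37-fold (2.26 to 2.48), and none fell. Among the 13901 genes whose mean over the 4 libraries reached 1 FPKM, which include all 10, 12.6% rose and 3.67% fell at this step. Atr at 1.98-fold (1.92 to 2.04) and Rad9b at 1.95-fold (1.63 to 2.35) were just under the threshold. From d16 to d24 Atm and Chek1 fell, to levels 2.77-fold (2.62 to 2.94) and 2.06-fold (1.72 to 2.48) lower, and none of the 10 rose, where 8.45% of all genes fell and 27.5% rose. From d24 to the adult none of the 10 passed 2-fold, where 11.4% of all genes rose and 2.20% fell. Over the whole span from d12 to d24, which was added after the values were seen, Mdc1 (3.44-fold) and Atr (2.51-fold) rose and Atm (3.72-fold lower) and Chek1 (2.50-fold lower) fell. The shares of all genes over this span were 33.6% up and 19.3% down. The calls of Mdc1, Atm and Chek1 over d12 to d24 held in each of the 4 scalings described next, whereas Atr was at 1.504-fold, 1.65-fold and 1.94-fold in the 3 other than the deposited one and so did not pass 2-fold there. The calls of Mdc1 at the first step and of Atm and Chek1 at the second were lost on 1 of the 4 scalings, that of the axis genes. In whole testis, fewer cells of a type and less RNA per cell cannot be told apart.

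The 10 genes changed in both directions, and their median log2 change was 0.45 from d12 to d16, -0.19 from d16 to d24 and -0.27 from d24 to the adult. The medians of the 13901 genes were 0, 0.13 and -0.02. Of the 10 genes, 7, 2 and 2 lay above the median of all genes at these steps, counts that no scaling of whole libraries can change. Changes were computed on 4 scalings of the libraries, namely the deposited one, an equal FPKM sum, the upper quartile, and the geometric mean of 6 genes of the chromosome axis and synapsis. On the axis genes the medians of the 10 at the first and second step turned to -0.44 and 0.36, and those of all genes to -0.89 and 0.67. The sign of single genes depended in part on the scaling. From d12 to d16 Atr, Mdc1 and Rad9b were up and Atm, Chek1 and Brca1 down in all 4 scalings, and the other 4 genes changed sign with the scaling. From d16 to d24 Atm and Chek1 alone kept their sign. From d24 to the adult 8 were lower in all 4, the exceptions being Brca1 and Chek1. Between d12 and the adult, Mdc1 was higher and 6 genes (Brca1, Topbp1, Atm, H2afx, Rnf8 and Chek1) were lower in all 4, while Atr, Rad9b and Hus1b changed sign. The order of stages given for each gene is that of the deposited scale.

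**Figure D1:**
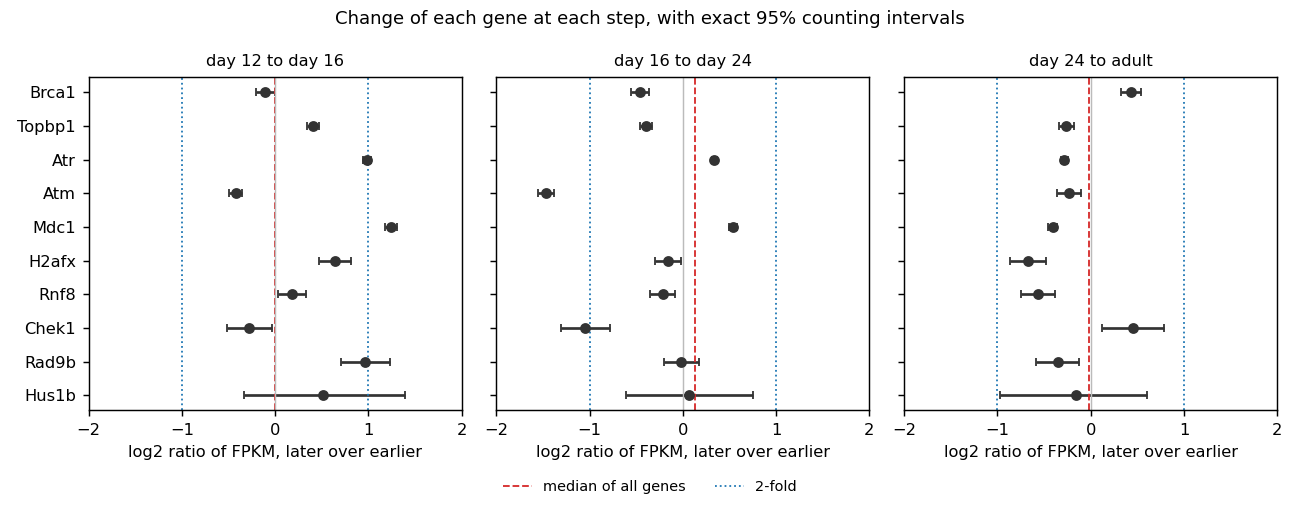
Log2 ratio of FPKM, later over earlier stage, for each of the 10 genes at each step on the deposited scale, with 1 library per stage. Points are ratios and bars their exact 95% counting intervals, the dashed line is the median of the 13901 genes, and the dotted lines mark 2-fold. Mdc1 is past 2-fold at the first step and Atm and Chek1 at the second, and no gene is at the third.

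The FPKM of a single fragment at 1 kb of transcript was 0.0800, 0.0801, 0.0456 and 0.112 in the d12, d16, d24 and adult libraries, so the d24 library counts most finely. A count of 0 at that length allows up to 0.240, 0.240, 0.137 and 0.337 FPKM (3 fragments). Behind the values of the 10 genes lie 20 fragments (Hus1b in the adult) to 28595 (Atr at d24). The sums of markers of pachytene and haploid cells were highest in the adult. The summed FPKM of 6 pachytene markers went from 60.5 at d12 to 1016, 4394 and 5272. Ldhc alone gave 2267 of this at d24 and 2769 in the adult. Piwil1 (193 at d24, 158 in the adult) and Adam2 (220 and 211) were lower in the adult than at d24. That of 6 round spermatid markers was 3.19, 4.85, 402 and 1046. For 6 elongating spermatid markers it was 13.2, 4.45, 2363 and 26392, with 4 of the 6 lower by at least 2-fold at d16 than at d12, before such cells form. Over the same stages the sum of 6 spermatogonial markers went from 112 to 70.1, 35.1 and 25.9 FPKM. Dmrt1 alone gave 77.4 at d12 and 14.8 in the adult, while Gfra1 went the other way, from 1.20 to 2.41. The sum of 6 markers of early meiotic spermatocytes went from 176 to 142, 107 and 107. The latter list was divided, since Stra8 went from 86.4 to 12.3 and Dmc1 from 45.7 to 12.4 FPKM between d12 and the adult, while Spo11 went from 3.76 to 23.5 and Rec8 from 9.48 to 33.9, and the median of the 6 was 15.6, 21.5, 18.3 and 15.4. Among the somatic lists, 6 Sertoli markers summed to 792, 675, 463 and 493 FPKM, with the Sertoli hormone gene Amh listed at 0 in the adult. Clu alone gave 707, 609, 420 and 457 of these, and every other Sertoli marker was lower in the adult than at d24. The 6 Leydig markers summed to 132, 82.4, 153 and 581. Marker levels thus differed between the same stages, though not every list at every step, as the early meiotic sum was 107 at d24 and in the adult. The part of cell types in the changes given here was not tested. A sum led by a single gene does not measure the share of a cell type.

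The promoters of 5 genes are shown, namely Mdc1, Atr and Rad9b, the 3 that were higher at d24 than at d12 in all 4 scalings, and Atm and Chek1, the 2 that fell. Each line holds the 250 bases before the start of transcription, 5′ to 3′ on the strand of the gene, from RefSeq on GRCm38.p6. Capitals mark CCAAT (a box bound by NF-Y), TGACG (the first part of TGACGTCA, the cAMP response element), GGGCGG (the GC box bound by SP1) and the E2F motifs TTTGGCGC and TTTCGCGC, searched on both strands. The windows are Mdc1 at chr17:35841248-35841497 (+ strand), Atr at chr9:95857347-95857596 (+ strand), Rad9b at chr5:122354206-122354455 (- strand), Atm at chr9:53536672-53536921 (- strand) and Chek1 at chr9:36726659-36726908 (- strand).
Mdc1: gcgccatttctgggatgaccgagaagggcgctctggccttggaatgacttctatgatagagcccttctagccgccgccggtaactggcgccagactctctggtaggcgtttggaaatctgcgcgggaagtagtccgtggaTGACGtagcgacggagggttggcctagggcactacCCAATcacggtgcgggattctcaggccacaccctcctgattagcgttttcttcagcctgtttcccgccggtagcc
Atr: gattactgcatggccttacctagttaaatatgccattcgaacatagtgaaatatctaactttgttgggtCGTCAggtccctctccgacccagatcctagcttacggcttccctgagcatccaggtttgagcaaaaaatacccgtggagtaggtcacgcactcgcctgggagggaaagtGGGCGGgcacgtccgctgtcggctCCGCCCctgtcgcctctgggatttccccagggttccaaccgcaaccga
Rad9b: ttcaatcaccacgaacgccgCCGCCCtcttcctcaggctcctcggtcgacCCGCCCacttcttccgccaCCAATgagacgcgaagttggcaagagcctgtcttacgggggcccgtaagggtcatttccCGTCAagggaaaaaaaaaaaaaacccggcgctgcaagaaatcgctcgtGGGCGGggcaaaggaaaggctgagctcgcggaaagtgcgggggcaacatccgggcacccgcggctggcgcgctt
Atm: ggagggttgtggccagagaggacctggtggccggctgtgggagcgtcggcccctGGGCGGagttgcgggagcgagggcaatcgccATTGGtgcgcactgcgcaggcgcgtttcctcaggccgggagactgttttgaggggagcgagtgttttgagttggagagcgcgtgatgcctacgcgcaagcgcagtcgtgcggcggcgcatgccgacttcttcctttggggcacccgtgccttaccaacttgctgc
Chek1: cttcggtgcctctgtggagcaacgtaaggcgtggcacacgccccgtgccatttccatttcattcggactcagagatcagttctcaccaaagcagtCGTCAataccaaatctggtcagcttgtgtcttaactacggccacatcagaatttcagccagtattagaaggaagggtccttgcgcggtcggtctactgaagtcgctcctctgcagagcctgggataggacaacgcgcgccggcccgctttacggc

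TGACG stood in the promoters of all 3 genes that were higher at d24 in all 4 scalings. It lay 110 bases before the start in Mdc1, 181 in Atr and 122 in Rad9b. It also stood in Chek1, which fell, at 155 bases, and not in Atm. In Atr, Rad9b and Chek1 the match was on the reverse strand and is printed as CGTCA. Positions are those of the first printed base of a match. Brca1 and Rnf8, not shown, were also lower at d24 in all 4 scalings. Brca1 held TGACG at 198, 119 and 19 bases, and Rnf8 did not hold it. GGGCGG stood 72 and 48 bases before the start of Atr, 230, 200 and 74 before Rad9b, and 196 before Atm. CCAAT lay at 75 bases in Mdc1, 181 in Rad9b and 165 in Atm. The table of promoters held 9 of the 10 genes, H2afx being without an entry. Over its 300 bases, which include the first 50 of the transcript, TGACG was found in 6 of the 9 and in 20.8% of all 32851 promoters. GGGCGG was found in 6 of the 9 against 35.7%, and CCAAT in 5 of the 9 against 37.4%. The full TGACGTCA was in none of the 9 (1.79% of all), TTTGGCGC in none (0.514%), and TTTCGCGC in Topbp1 alone (0.323%). AACNG, the short core of the MYB motif, was in 8 of the 9 but also in 80.3% of all. The ratio of observed to expected CpG had a median of 0.901 over the 9 promoters, against 0.384 over all, and Hus1b stood apart with 0.211. Motifs follow base composition, and a match is a run of letters and not a bound site.

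Atr (chr9:95857597-95951644, + strand, 47 exons), the kinase of the silencing signal, gave 64.4 FPKM at d12 (62.9 to 66.0), 128 at d16 (126 to 130), 162 at d24 (160 to 163) and 133 in the adult (130 to 136). No interval met another, and the order was d12, d16, adult, d24 from low to high. In each library Atr had the highest level of the 10, above that of 92.8% to 97.5% of the 13901 genes. From d16 to d24 it was 1.26-fold higher as deposited and lower under the equal sum and the upper quartile, and the adult was below d12 with the equal sum. Atr overlaps the start of 1700065D16Rik on the opposite strand, with 187 of its 8074 exonic bases shared, and that neighbour was at 0.203, 1.63, 9.68 and 7.08 FPKM. Libraries were strand-specific and were mapped with the second-strand setting, and the options listed for the counting name no strand.

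Atm (chr9:53437122-53536671, - strand, 63 exons) changed in the opposite direction. It gave 26.96 FPKM at d12 (26.1 to 27.8), 20.1 at d16 (19.4 to 20.8), 7.26 at d24 (6.93 to 7.59) and 6.17 in the adult (5.71 to 6.66). Each stage was below the one before it, and the intervals did not overlap. The adult level was 4.37-fold below d12 (4.02 to 4.75), and the sign of every step held in all 4 scalings. Its place among the 13901 genes went from above 84.0% at d12 to above 75.7%, 43.0% and 38.1%.

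The ratio between these kinases within a library cannot be moved by any scaling between libraries. Atr to Atm was 2.39 at d12 (2.30 to 2.49), 6.35 at d16 (6.10 to 6.61), 22.3 at d24 (21.3 to 23.3) and 21.5 in the adult (19.9 to 23.3). It thus went up at the first and second step, and the d24 and adult intervals overlapped. Npat, whose start lies 376 bases from that of Atm in the opposite direction, was at 15.6, 13.1, 11.6 and 10.2 FPKM. From d12 to d24 Npat was at 0.746 of its level and Atm at 0.269.

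Chek1 (chr9:36708482-36726658, - strand, 13 exons), the effector kinase, was at 7.33 FPKM at d12 (6.53 to 8.18), 6.05 at d16 (5.34 to 6.85), 2.93 at d24 (2.56 to 3.36) and 4.03 in the adult (3.35 to 4.81). The d12 and d16 intervals overlapped, d24 was below both, and the d24 and adult intervals touched only at their ends. Its step from d16 to d24 stood close to 2-fold, its interval reached under it, and with a pseudocount of 1 FPKM it was no longer counted. Chek2, the effector of ATM, was lower still, at 3.62, 2.17, 1.11 and 0.799 FPKM. Chek1 to Chek2 was 2.02 (1.61 to 2.56), 2.79 (2.10 to 3.76), 2.63 (1.95 to 3.62) and 5.04 (2.98 to 9.10), ratios whose neighbouring intervals all overlapped. The d12 and adult intervals were apart, and only 16 fragments of Chek2 stand behind the adult ratio.

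**Figure D2:**
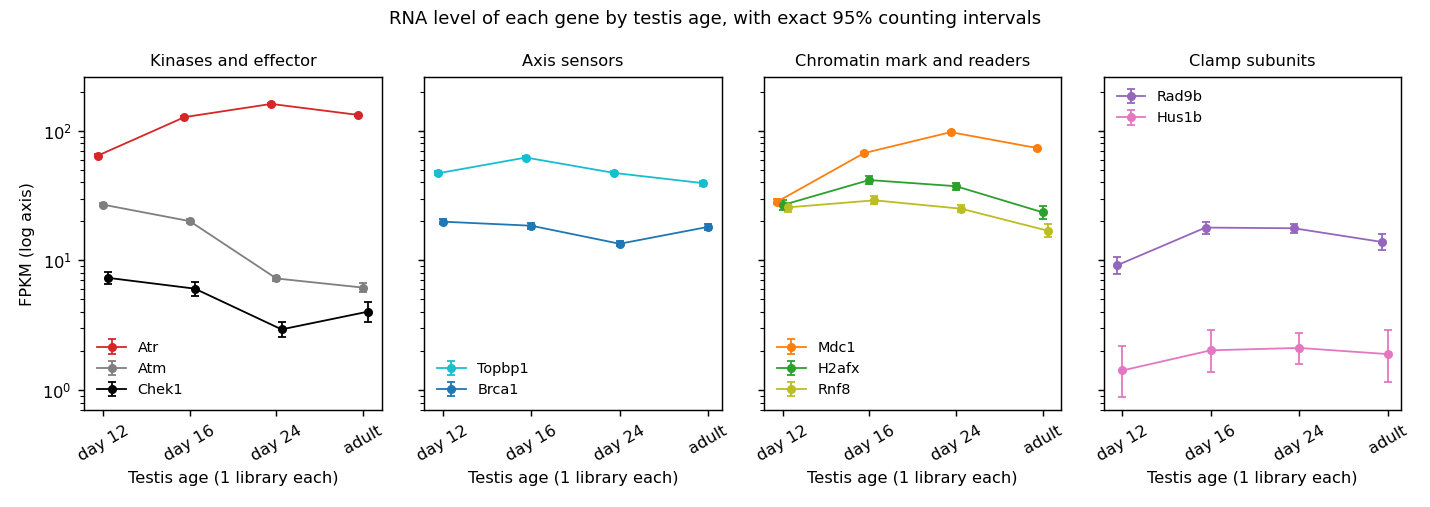
FPKM on a log axis of the 10 genes by testis age, grouped by role, with 1 library per age. Points are deposited values and bars exact 95% counting intervals: Atr goes from 64.4 to 162 between d12 and d24 while Atm goes from 26.96 to 7.26, and Hus1b stays between 1.41 and 2.11.

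Of the proteins on the unpaired axis, Topbp1 (chr9:103305327-103350428, + strand, 28 exons), the activator of ATR, was at 47.0 FPKM at d12 (45.3 to 48.7), 62.3 at d16 (60.4 to 64.2), 47.3 at d24 (46.1 to 48.6) and 39.5 in the adult (37.7 to 41.4). It had its highest value at d16, and d12 and d24 overlapped. Relative to Atr it went down: Topbp1 to Atr was 0.729 at d12 (0.698 to 0.762), 0.488 at d16 (0.471 to 0.505), 0.293 at d24 (0.284 to 0.302) and 0.297 in the adult (0.283 to 0.313). The kinase and its activator therefore did not keep a constant ratio of RNA, and the d24 and adult ratios overlapped. Topbp1 shares 0.406% of its 50-base stretches with other transcripts, among them its pseudogene Topbp1-ps2.

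Brca1 (chr11:101488764-101551955, - strand, 23 exons), which acts on the axis ahead of ATR, differed 1.48-fold between its lowest and highest stage as deposited. It gave 19.9 FPKM at d12 (19.0 to 20.9), 18.5 at d16 (17.6 to 19.5), 13.4 at d24 (12.9 to 14.1) and 18.2 in the adult (17.1 to 19.3). The d24 library stood below the other 3, and those 3 overlapped with one another. The ratio of Brca1 to Bard1, its ring-finger partner, was 4.47 (3.95 to 5.07), 2.68 (2.41 to 2.98), 2.27 (2.08 to 2.47) and 3.83 (3.32 to 4.44) in stage order. It was highest at d12 and in the adult, whose intervals overlapped. Nbr1, which starts 152 bases from Brca1 on the opposite strand, had 40.4, 36.1, 51.3 and 158 FPKM, so it was 3.07-fold higher in the adult than at d24 where Brca1 was 1.35-fold higher.

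Among the genes of the marked chromatin, Mdc1 (chr17:35841498-35859670, + strand, 16 exons) gave 28.4 FPKM at d12 (27.4 to 29.5), 67.3 at d16 (65.7 to 69.0), 97.8 at d24 (96.3 to 99.3) and 73.6 in the adult (71.5 to 75.7). No interval met another, and d12 was the lowest. The adult was 2.59-fold above d12 as deposited, but 1.11-fold with equal FPKM sums and 1.42-fold with the upper quartile. Its place went from above 85.0% of all genes at d12 to above 94.1% at d16. The step from d16 to d24 was 1.45-fold as deposited and turned to slightly lower with equal FPKM sums. Mdc1 shares 1.24% of its 50-base stretches with other transcripts.

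H2afx (chr9:44334715-44336077, + strand), the histone gene, has a single exon, as do 4.48% of the 13829 genes with a curated transcript. It was at 26.7 FPKM at d12 (24.3 to 29.3), 41.7 at d16 (38.7 to 44.9), 37.4 at d24 (35.2 to 39.7) and 23.5 in the adult (20.8 to 26.4). The d16 and d24 intervals overlapped, as did those of d12 and the adult, and the former pair was above the latter. H2afx shares 6.14% of its 50-base stretches with 21 other genes, mostly of the H2A family, so part of its reads could be placed elsewhere. The reader gained on the histone: Mdc1 to H2afx was 1.06 at d12 (0.962 to 1.18), 1.61 at d16 (1.49 to 1.75), 2.61 at d24 (2.46 to 2.78) and 3.13 in the adult (2.78 to 3.54), and only the d24 and adult intervals met. H2afz, the most abundant of 6 other H2A variant genes in each library, went from 63.9 to 84.9, 135 and 116 FPKM. H2afx to H2afz was 0.419, 0.491, 0.277 and 0.204.

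Trp53bp1, a further reader of damaged chromatin, remained between 16.6 and 18.5 FPKM in the 4 libraries. Mdc1 to Trp53bp1 was therefore 1.53 at d12 (1.45 to 1.62), 3.77 at d16 (3.59 to 3.96), 5.87 at d24 (5.66 to 6.10) and 4.38 in the adult (4.13 to 4.65). These intervals are all apart.

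Rnf8 (chr17:29614789-29641664, + strand, 8 exons) was at 25.7 FPKM at d12 (23.8 to 27.7), 29.1 at d16 (27.1 to 31.3), 25.1 at d24 (23.7 to 26.6) and 16.95 in the adult (15.1 to 19.0). The adult was below the other 3, and d12 overlapped with d16 and with d24. Rnf168, the ligase that acts after RNF8, had 15.7, 18.2, 28.7 and 41.9 FPKM. Rnf8 to Rnf168 went from 1.64 (1.48 to 1.81) and 1.60 (1.46 to 1.76) to 0.873 (0.814 to 0.935) and 0.405 (0.358 to 0.457), so the order of the ligases was turned round between d16 and d24. The value of Rnf8 is uncertain, because 1629 of its 2078 exonic bases also belong to the read-through gene Gm28043 on the same strand, which the table does not list.

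The clamp paralogs stood at different levels. Rad9b (chr5:122323223-122354205, - strand, 13 exons) was at 9.17 FPKM at d12 (7.89 to 10.6), 17.9 at d16 (16.1 to 19.9), 17.7 at d24 (16.3 to 19.1) and 13.9 in the adult (11.99 to 15.9). The d12 library was below the other 3, d16 and d24 overlapped, and the adult lay between. With equal sums or the upper quartile the adult was below d12. Rad9a, the widely expressed paralog, had 2.54, 1.29, 2.76 and 2.03 FPKM. Rad9b to Rad9a was 3.62 (2.71 to 4.88), 13.9 (9.71 to 20.5), 6.42 (5.29 to 7.85) and 6.84 (4.79 to 10.0), highest at d16, whose interval was apart from those of d12 and d24 and just met that of the adult. Only 33 fragments of Rad9a stand behind the d16 ratio. Rad9b has 2 curated transcripts of 1605 and 2346 bases, and with the longer one the ratio was 2.47, 9.49, 4.38 and 4.67. Rad9b was thus the more abundant paralog in all 4 libraries under both lengths. Of its 2721 exonic bases, 1002 overlap Pptc7 on the opposite strand, which was at 8.17, 8.59, 9.97 and 10.9 FPKM.

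Hus1b (chr13:30946576-30947761, - strand), also a gene with a single exon, was the lowest of the 10 in each library, at 1.41 FPKM at d12 (0.877 to 2.17), 2.02 at d16 (1.37 to 2.89), 2.11 at d24 (1.59 to 2.75) and 1.89 in the adult (1.16 to 2.92). These values rest on 21, 30, 55 and 20 fragments, all 4 intervals overlapped, and no difference between stages was detectable at this depth. Hus1, its paralog, was at 3.05, 3.49, 3.77 and 2.99 FPKM. Hus1b to Hus1 was 0.464 (0.279 to 0.733), 0.579 (0.380 to 0.856), 0.561 (0.414 to 0.747) and 0.633 (0.373 to 1.03). On the deposited values Hus1 was thus the more abundant paralog at d12, d16 and d24, the reverse of Rad9b and Rad9a, while the adult interval included 1. With the longest curated transcripts the ratio was nearer to 1, at 0.561, 0.701, 0.678 and 0.764, and no interval was computed for it. Hus1b lies in an intron of Exoc2 on the same strand, and neither of the curated Exoc2 transcripts has an exon over it. Exoc2 was at 8.70, 10.8, 13.0 and 17.05 FPKM, and since total RNA was sequenced, unspliced Exoc2 RNA could give reads over Hus1b, which was not tested.

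**Figure D3:**
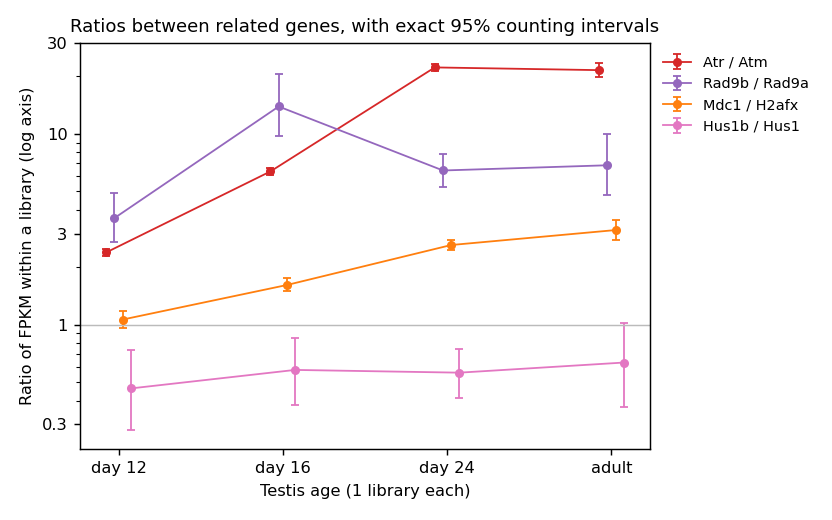
Ratios of FPKM within a library on a log axis, by testis age with 1 library per age, for 4 pairs of related genes. Points are ratios and bars exact 95% counting intervals: Atr to Atm goes from 2.39 to 22.3 between d12 and d24, Rad9b to Rad9a peaks at 13.9 at d16, Mdc1 to H2afx goes from 1.06 at d12 to 3.13 in the adult, and Hus1b to Hus1 stays below 1.

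The order of the 10 levels changed mainly below Atr. At d12 Topbp1 was the runner-up, followed by Mdc1, Atm, H2afx and Rnf8, whose neighbouring intervals overlapped, then Brca1, Rad9b and Chek1, the last 2 overlapping, and Hus1b. At d16 Mdc1 had passed Topbp1, and H2afx and Rnf8 followed. Atm, Brca1 and Rad9b came next, with intervals that overlapped from one to the next. At d24 the order was Atr, Mdc1, Topbp1, H2afx, Rnf8, Rad9b, Brca1 and Atm with no overlap between neighbours, and then Chek1 and Hus1b, which overlapped. In the adult Brca1, Rnf8 and Rad9b overlapped from one to the next, and all other neighbours were apart.

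The genes were also set against 6 genes of the chromosome axis and synapsis (Hormad1, Hormad2, Sycp1, Sycp2, Sycp3 and Trip13), a scale added after the values were seen. Their geometric mean was 70.7, 134, 91.3 and 87.6 FPKM. Atr was at 91.1%, 95.6%, 177% and 152% of it in stage order. Mdc1 was at 40.2%, 50.4%, 107% and 84.0%. On this scale Atr and Mdc1 thus changed little from d12 to d16 and went up from d16 to d24, a different timing from the FPKM. Atm was at 38.1%, 15.0%, 7.95% and 7.04%, and Chek1 at 10.4%, 4.53%, 3.21% and 4.60%, so both were lower at d16 already. H2afx was between 26.8% and 41.0% and Rad9b between 13.0% and 19.4%.

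All of 49 further genes around this pathway, in 7 lists, passed the filter on FPKM. Of the 49, 3, 3 and 2 rose at the successive steps, where 12.6%, 27.5% and 11.4% of all genes did. Only H2afb1 was counted as a fall, at the first step, and none fell at the later steps. Of all genes 3.67%, 8.45% and 2.20% fell at these steps. The H2afb1 call compares 0.152 with 0, both under the 0.240 FPKM of 3 fragments at 1 kb. Neither a fragment count nor an interval was available for H2afb1. Its call at this step therefore depends on the pseudocount and does not show a decrease. From d12 to d16 the genes that rose were Hormad1 (2.98-fold), Sycp2 (2.26-fold) and Hormad2 (2.14-fold), 3 of the 6 axis and synapsis genes. The interval of the Hormad2 change (1.67 to 2.75) reached below 2-fold. HORMAD1 and HORMAD2 mark unpaired axes and SYCP2 is an axis protein. From d16 to d24 Rhno1, whose product binds the 9-1-1 clamp, rose 2.76-fold and Rad9a 2.14-fold, 2 of the 5 clamp and loader genes. The interval of the Rad9a change (1.45 to 3.24) reached below 2-fold, and 33 fragments stand behind its d16 value. Rad9a at d24 was 1.09-fold its d12 level (0.799 to 1.49). From d24 to the adult Ube2n, the ubiquitin-conjugating enzyme that works with RNF8, rose 3.08-fold, from 82.6 to 254 FPKM, the only one of 12 responders at marked chromatin. H2afb1, a testis histone of the H2A family, was listed at 0.152, 0, 13.0 and 81.0 FPKM, and no fold is given against the library at 0.

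Over d12 to d24, 8 of the 49 rose and 7 fell, where 33.6% and 19.3% of all genes did, and these genes were chosen after their values were seen. Of 11 kinase partners and effectors 5 fell and none rose, with a median log2 change of -0.98. These were Chek2 (3.25-fold lower), Cdc25b (2.54-fold), Clspn (2.53-fold), Prkdc (2.30-fold) and Tipin (2.02-fold). CHEK2 and PRKDC belong to the response to breaks, CLSPN and TIPIN to the replication fork, and CDC25B drives entry into division. Atrip, the obligate partner of ATR, was at 4.00, 6.53, 5.20 and 5.28 FPKM, so Atr to Atrip was 16.1 (13.5 to 19.3), 19.6 (17.1 to 22.5), 31.0 (27.7 to 34.9) and 25.2 (21.1 to 30.4). Brcc3 (2.89-fold lower) and Scml2 (2.66-fold lower), which fell too, are the genes of these lists that were placed on the X chromosome. H2afb1, which rose from 0.152 FPKM at d12 to 13.0 at d24, was not placed on any chromosome. Whether H2afb1 lies on the X chromosome was not tested. Besides H2afb1 the genes that rose were Trim28 (2.63-fold), Sycp2 (2.34-fold), Hormad1 (2.31-fold), Bre (2.14-fold), Babam1 (2.13-fold), H2afz (2.11-fold) and Rhno1 (2.03-fold). The intervals of Bre (1.86 to 2.47), Babam1 (1.88 to 2.41), H2afz (1.96 to 2.29) and Rhno1 (1.78 to 2.32) reached below 2-fold. So did those of Cdc25b (1.85 to 3.48) and Tipin (1.90 to 2.15) among the genes that fell. Calls of the 49 genes, at the steps and over this span, are given on the deposited scale alone. Atr, at 2.51-fold over this span as deposited, was below 2-fold on each other scaling. BRE and BABAM1 are subunits of the BRCA1-A complex, to which BRCC3 also belongs. The 3 genes of the MRN complex, the sensor of breaks ahead of ATM, did not pass 2-fold at any of these steps.

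**Figure D4:**
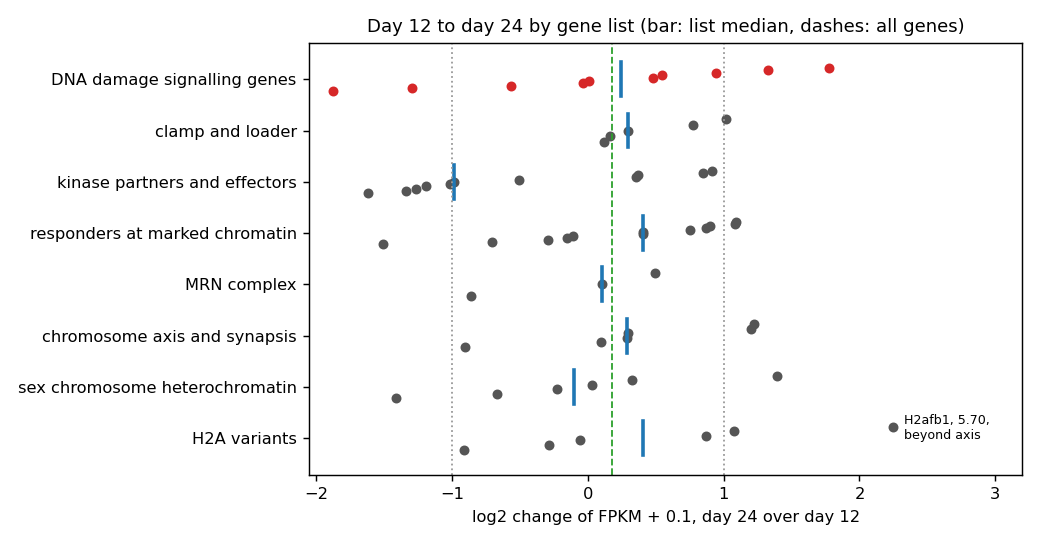
Log2 change of FPKM + 0.1 from d12 to d24 for the 10 genes (red) and the 49 genes of 7 lists (grey), 1 library per stage. Bars are list medians, the dashed line is the median of the 13901 genes and the dotted lines mark 2-fold. The kinase partners and effectors have the lowest median, -0.98. H2afb1, at 5.70, is drawn at the edge.

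The genome positions of the 10 genes share a feature that the choice of genes did not use: Atr, Atm, Topbp1, H2afx and Chek1, 5 of the 10, are on chromosome 9, which holds 5.55% of the 13829 genes that passed the filter on FPKM and have a curated transcript. None is on a sex chromosome. Brca1, Atm, Rad9b and Atr, 4 of the 10, start within 1000 bp of a gene on the opposite strand, against 19.9% of all, and the partners did not share one direction. From d12 to d24 Nbr1 was 1.27-fold, Vps29, the partner of Rad9b at 123 bases, 1.496-fold and Npat 0.746-fold, and Vps29 had 24.8, 29.5, 37.1 and 32.1 FPKM in the 4 libraries.

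The genes most like the 3 most abundant of the 10 in profile were found by the distance between log2(FPKM + 0.1) values centred on their own mean over the 4 libraries, among 13900 other genes. For Atr they were Urb1 (0.057), Actr5 (0.085) and Polh (0.097), and 46 genes lay within 0.2. For Mdc1 they were Ago4 (0.10), Cul9 (0.12) and Ssna1 (0.12), with 10 genes within 0.2. For Topbp1 they were Tardbp (0.041), Atp11b (0.055) and Gemin2 (0.070), with 128 within 0.2. Among the 10 themselves, the nearest to Atr was Mdc1 (0.33) and the nearest to Topbp1 was Rnf8 (0.28). With 4 libraries such likeness is a description, and many genes share a profile.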

How the data were processed

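RNA-seq of whole testis at d12, d16, d24 and adult was used, with 1 library per stage, assigned from GEO's labels. The authors prepared strand-specific libraries from total RNA, aligned them with TopHat2 (2.1.0, on bowtie 1.1.2) to the GRCm38/mm10 assembly, and deposited FPKM values of RefSeq genes. These were computed by Cuffdiff (Cufflinks 2.2.1), which corrected for bias and for reads with several matches but not for effective length. The scaling between libraries in Cuffdiff is not given in the sources used here. The 4 H3K27Ac ChIP-seq samples were not analysed here.

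FPKM was multiplied by the length of the shortest curated RefSeq transcript and divided by the value of 1 fragment, found from the steps between low values (under 20 fragments) in 15427 genes with 1 transcript. Of these values 91.5% to 92.4% were within 0.05 of a whole number. The steps imply 8891000, 9447000, 23681000 and 12051000 fragments in the d12, d16, d24 and adult libraries. Exact Poisson intervals (levels) and Clopper-Pearson intervals (ratios), at 95%, were taken from these fragments and do not cover the correction by the authors or the spread between animals. A pseudocount of 0.1 FPKM, a mean of at least 1 FPKM over the 4 libraries and a threshold of 2-fold were used. The scripts that find the value of 1 fragment, the calls and the intervals were checked on simulated counts. Python 3.11.15, numpy 2.4.6, pandas 2.3.3, scipy 1.17.1 and matplotlib 3.10.9 were used.

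Gene positions and promoters came from RefSeq (GRCm38.p6). Of the 23983 symbols, 22567 matched by symbol and 1267 by synonym. The text names the 10 genes, the genes of 7 lists past 2-fold at a step (up to 4 per list and step), Rad9a, Hus1, and for the 3 most abundant of the 10 the 3 genes nearest in profile. The 10 genes and the lists were chosen with earlier results of these data known. The d12 to d24 span, its named genes, the neighbouring genes, the ratios besides Atr to Atm, Rad9b to Rad9a and Hus1b to Hus1, and the scaling to axis genes were added after values were seen. A planned comparison of protein sequences was not run.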

Additional observations from a re-analysis of the deposited data

How the results depend on the processing

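Of 189 recomputed values, 101 kept their call or moved by less than their counting interval, 88 did not, and none turned a called direction round. Few single genes had a call that could turn, and values without a call did change sign, as the medians on the axis genes did. With an equal FPKM sum per library, 4 of the 10 genes fell from d16 to d24 and 2 from d24 to the adult (30.7% and 10.9% of all genes), with medians of -0.80 and -0.75, where the medians of all genes moved to -0.48 and -0.49. With the upper quartile these medians of the 10 were -0.66 and -0.53, and those of all genes -0.33 and -0.27. A pseudocount of 1 FPKM left 1 gene that fell from d16 to d24 (4.09% of all genes). At 1.5-fold, 4 genes rose from d12 to d16 and 1 fell from d24 to the adult (20.3% and 8.72% of all genes), and at 3-fold 0 rose at the first step and 0 fell at the second (8.11% and 1.30%). With the axis genes as the scale, chosen after seeing the data, 0 genes rose and 3 fell from d12 to d16 (median -0.44, with 7.16% up and 42.0% down of all genes), and 1 rose and 0 fell from d16 to d24 (median 0.36, with 39.8% and 1.56%), while the median of all genes moved to -0.89 and 0.67. With the longest curated transcript, Rad9b to Rad9a was 2.47, 9.49, 4.38 and 4.67 in stage order. No paired analysis was possible because each stage is 1 library, and for the same reason no library could be left out. Depth limits Hus1b, whose intervals at all stages overlapped.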
